A study of Mus musculus with 6 samples.

Results

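The genes of S phase and DNA replication were followed in mouse blood colonies that lacked or carried Psip1. The set held 41 genes, picked by symbol from the 46983 genes of the count files, and earlier results of these data were known when it was drawn up. All 41 were found, and all 41 passed the filter on low counts, since each had at least 68 reads in every library but 1. A KO group and a WT group, of 3 libraries each, were compared. KO libraries came from C57BL/6 mice labelled Psip1-KO, whose allele the series design writes as PsipVav/Vav. WT libraries came from C57BL/6 mice labelled wild type, which the design writes as PsipFl/Fl, so that these controls may carry the floxed allele too. Vav is the name of a promoter widely used to drive Cre recombinase in blood cells. The mice were 8 to 11 weeks old by the sample labels and 8 to 10 weeks by the growth protocol. In both groups, marrow progenitors depleted of lineage-marked cells were grown in methylcellulose, with stem cell factor, IL-6 and IL-3 added, and the colonies were taken after 6 to 7 days. Psip1 encodes LEDGF, a chromatin reader best known as a tether of the MLL and menin complex. The labels do not say whether libraries of a group came from separate cultures. Reads of Xist and of the Y-linked gene Eif2s3y, given below, show cells of both sexes in each group. The libraries of a group thus did not all come from a single animal, but the p-values may still rest in part on technical spread.

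DNA replication is prepared in G1, when the origin recognition complex, Cdc6 and Cdt1 load the ring of Mcm2 to Mcm7 onto DNA. At the start of S phase Cdc45 and the GINS complex join that ring to form the active helicase, and polymerases, the Pcna clamp and its loader follow. Most of these genes are transcribed in a burst at the G1 to S transition under E2F factors, and their messenger RNA is scarce in cells that have left the cycle. In myeloid colonies, early progenitors and promyelocytes divide, while ripe neutrophils do not.

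The E2F letters were common in the promoters of the set. RefSeq promoters (GRCm38.p6, 250 bases before to 50 after a start site) were on hand for 35 of the 41 genes, with 40 promoters in all. The letters TTTCCCGC, TTTGGCGC, TTTGCCGC or TTTCGCGC, on either strand, stood in 15 of the 40 promoters (37.5%). The same letters stood in 3.91% of the 12175 promoters of genes tested here and in 2.26% of all 32851 promoters. CCAAT, the letters that NF-Y reads, stood in 55% of the promoters of the set, against 37.8% for tested genes and 37.4% for all. TTTGAA, the core of the CHR element of late cell cycle genes, stood in 10%, against 12.3% and 17.9%. A match of letters is a description of the window and not a site of binding. The 4 promoters below are shown because the results below turn on their genes or because they show the range of the motif content. They are those of Pclaf (chr9:65890073-65890372, plus strand), Mcm7 (chr5:138171834-138172133, minus strand), Mcm6 (chr1:128359656-128359955, minus strand) and Cdc45 (chr16:18811923-18812222, minus strand), each read 5′ to 3′ along the gene, with matches to any of the 3 motifs in capitals.
Pclaf: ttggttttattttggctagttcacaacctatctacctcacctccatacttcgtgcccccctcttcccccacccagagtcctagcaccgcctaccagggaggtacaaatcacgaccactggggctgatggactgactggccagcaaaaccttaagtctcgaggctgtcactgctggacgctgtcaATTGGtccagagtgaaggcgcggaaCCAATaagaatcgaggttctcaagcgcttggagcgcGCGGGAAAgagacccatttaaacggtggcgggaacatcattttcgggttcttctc
Mcm7: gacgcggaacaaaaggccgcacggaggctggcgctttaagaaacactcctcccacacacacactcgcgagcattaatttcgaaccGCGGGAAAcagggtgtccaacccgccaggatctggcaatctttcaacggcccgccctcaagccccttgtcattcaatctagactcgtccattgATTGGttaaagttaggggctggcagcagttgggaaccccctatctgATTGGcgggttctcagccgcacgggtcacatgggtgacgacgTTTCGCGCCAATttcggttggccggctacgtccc
Mcm6: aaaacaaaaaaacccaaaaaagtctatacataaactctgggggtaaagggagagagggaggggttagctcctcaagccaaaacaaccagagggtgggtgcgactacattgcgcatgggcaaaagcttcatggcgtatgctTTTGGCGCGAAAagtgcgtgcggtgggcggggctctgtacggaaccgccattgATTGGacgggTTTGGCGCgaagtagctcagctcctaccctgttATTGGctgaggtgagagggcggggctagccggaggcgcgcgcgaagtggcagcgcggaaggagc
Cdc45: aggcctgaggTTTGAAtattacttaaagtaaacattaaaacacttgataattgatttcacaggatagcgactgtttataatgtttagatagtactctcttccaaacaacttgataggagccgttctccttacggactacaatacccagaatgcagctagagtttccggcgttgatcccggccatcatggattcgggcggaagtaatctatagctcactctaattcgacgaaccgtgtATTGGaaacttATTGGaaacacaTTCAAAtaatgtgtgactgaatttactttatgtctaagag
Pclaf had 1 E2F match, which began 5 bases before the start site, and 2 CCAAT matches. Mcm7 had 2 E2F and 3 CCAAT matches, and the E2F match after its start overlapped a CCAAT match. Mcm6 held the most E2F matches of the set, 3 of them, of which 2 overlapped each other. Cdc45 had no E2F match in this window, 2 CCAAT and 2 CHR matches.

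Depth was very uneven. The KO libraries held 7056614 to 15569088 reads on genes, WT replicates 1 and 2 held 14332364 and 10418101, and WT replicate 3 held 27909. The first 5 are called the deep libraries here. In WT replicate 3, 1 read was worth 29.9 CPM, so its values are given as reads, and 8 of the 41 genes had 0 reads there, which allows up to 89.6 CPM each by counting error alone. CPM values here scale a gene's reads by the effective library size after TMM. Psip1 itself stood at 14.8, 17.6 and 16.3 CPM in KO replicates 1, 2 and 3, against 89.3 and 70.0 CPM in WT replicates 1 and 2 and 3 reads in WT replicate 3 (log2 fold change -2.32, SE 0.32, adjusted p = 0.05995 by edgeR), so that levels and labels went together in the deep libraries although the difference did not pass. Mitochondrial genes took 15.74% of gene reads in KO replicate 2 and 9.52% in WT replicate 3, against 1.26% to 1.84% in the others. Xist was read in KO replicate 1 and WT replicate 2 (12107 and 5910 reads) and at 1 read or fewer in the other 4 libraries. The Y-linked gene Eif2s3y had 0 reads in KO replicate 1 and WT replicate 2. It had 865 and 1144 reads in KO replicates 2 and 3, and 1078 and 4 in WT replicates 1 and 3. The Xist split is thus one between female and male cells.

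No gene of the set passed the test between genotypes. By edgeR's quasi-likelihood test with Benjamini-Hochberg adjustment over 12292 genes, 0 of 41 were lower and 0 were higher in KO at an adjusted p of 0.05, and the same held for all genes tested (0% in each direction). At an unadjusted p under 0.05, 1 of the 41 was lower (Pclaf) and 0 were higher, where 0.212% of all genes were lower and 1.24% higher. That count of lower genes was 0 without KO replicate 1 and without KO replicate 3. Without WT replicate 1 it was 2, Mcm7 and Dut in place of Pclaf, and over all genes 85 were then lower and 655 higher. DESeq2 and limma-voom likewise called 0 of the 41. Small negative values were common. Of the 41 genes 36 (87.8%) lay below 0 in the fitted log2 fold change (median -0.17), as did 48% of all tested genes (median 0.01). Scaling by DESeq2 size factors left 31 of the 41 below 0, since Orc6, Mcm10, Pold1, Rfc3 and Hells turned positive. In DESeq2, which tested 22213 genes, 31 of the 41 were below 0 too, but there the median of all genes was -0.32, below the -0.10 of the set. Among the 8893 genes at or above the mean level of the scarcest of the 41, which was 10.9 CPM, the share was 52%. Standard errors ran from 0.32 to 0.53, and the 95% interval included 0 for 40 of the 41 genes. For 25 genes the interval reached below -1, so that a fall by 1 log2 unit lay within it, and for 0 genes did it reach above 1. In whole colonies, fewer cells in S phase and less of these RNAs per cell cannot be told apart.

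**Figure D1:**
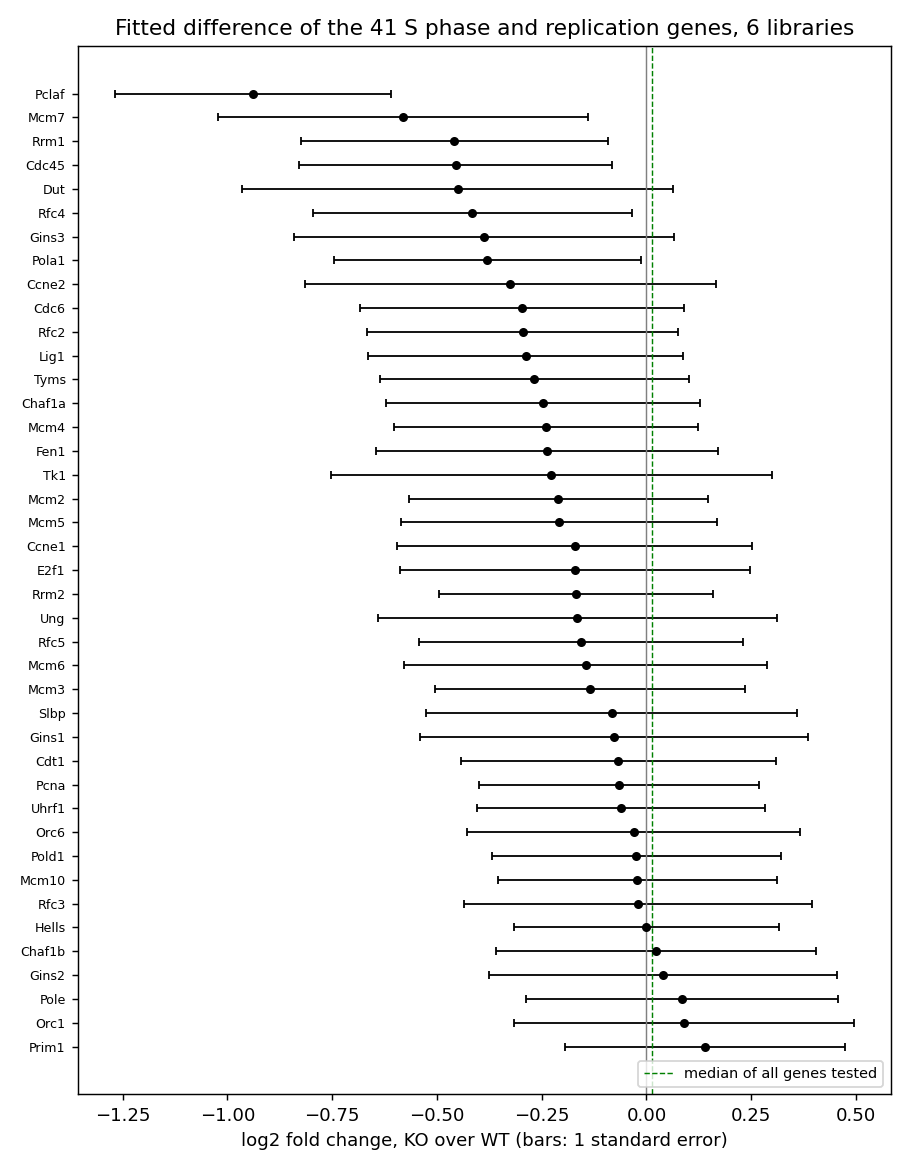
Fitted log2 fold change, KO over WT, of each of the 41 genes (points) with 1 standard error (bars), sorted by value, over 3 KO and 3 WT libraries. Most points lie left of 0, Pclaf lies farthest at -0.94, and the bars of most genes reach 0 or the median of all genes tested (dashed line, 0.01).

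The level of the set followed the library more than the genotype. Summed over the 41 genes it was 4285, 3017 and 3449 CPM in KO replicates 1, 2 and 3, a mean of 3584 ± 645 (SD, n = 3), against 3362 and 5197 CPM in WT replicates 1 and 2. WT replicate 3 held 124 reads of the set, or 0.444% of its gene reads with a 95% Wilson interval of 0.373% to 0.529%, while the deep libraries ran from 0.270% (KO replicate 2) to 0.510% (WT replicate 2). WT replicate 2 was therefore the high library, KO replicate 1 came next, and the other 3 deep libraries, of both genotypes, lay between 3017 and 3449 CPM. WT replicate 2 was the highest of the 5 deep libraries for 32 of the 41 genes, a place it took for 24.9% of all tested genes. The lowest place went to KO replicate 2 for 22 genes and to WT replicate 1 for 16, against 27.2% and 21.6% of all tested genes. These intervals and the floor above cover counting error alone.

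The gap between the 2 deep WT libraries exceeded the gap between genotypes. WT replicate 2 stood above WT replicate 1 for all but 4 of the 41 genes, with a median log2 ratio of 0.69, against 0.01 over all tested genes. Against WT replicate 2, KO replicates 1, 2 and 3 were lower for 35, 40 and 37 of the 41 genes. Against WT replicate 1, the same KO libraries were lower for 3, 23 and 10. Left without WT replicate 2, the fit gave 11 negative values of 41 and a median of 0.21. Over all genes tested in that fit 41.6% were negative and the median was 0.09. The lean towards lower values in KO thus did not hold without that library. The WT group was then WT replicate 1 and the shallow WT replicate 3. Without WT replicate 3, which is so shallow, 36 of 41 were negative (median -0.22). Without WT replicate 1 there were 38, and without KO replicate 1 there were 39 (medians -0.35 and -0.31). Without KO replicate 2 or KO replicate 3 there were 28 in each case (medians -0.08 for both). In each of these 6 fits 0 of the 41 genes passed the adjusted threshold.

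Libraries can also be set side by side within those that carry Xist reads and those that do not. This split of female and male cells crosses the genotypes. The libraries with Xist reads, WT replicate 2 and KO replicate 1, are also the highest deep ones for the summed level of the set. The cause of that order was not tested. Among the libraries with Xist reads, KO replicate 1 was lower than WT replicate 2 for 35 of 41 genes, with a median log2 ratio of -0.23. Among those without, KO replicate 2 was lower than WT replicate 1 for 23 genes (median -0.05) and KO replicate 3 for 10 genes (median 0.08). WT replicate 3 had no Xist read either, and at 0.444% of its gene reads (interval above) it held more of the set than KO replicate 2 (0.270%) and KO replicate 3 (0.336%). Scaled by TMM, WT replicate 3 stood at 3704 CPM on 124 reads, against 3017 and 3449 CPM in those KO libraries, with no interval computed on this scale. The libraries without Xist reads thus gave no single direction, and those with Xist reads are 1 KO against 1 WT library, which allows no test. With Xist reads as a term beside genotype, 27 of 41 values were negative, the median was -0.07 and 0 genes of the set passed, while 4 genes passed among all genes.

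**Figure D2:**
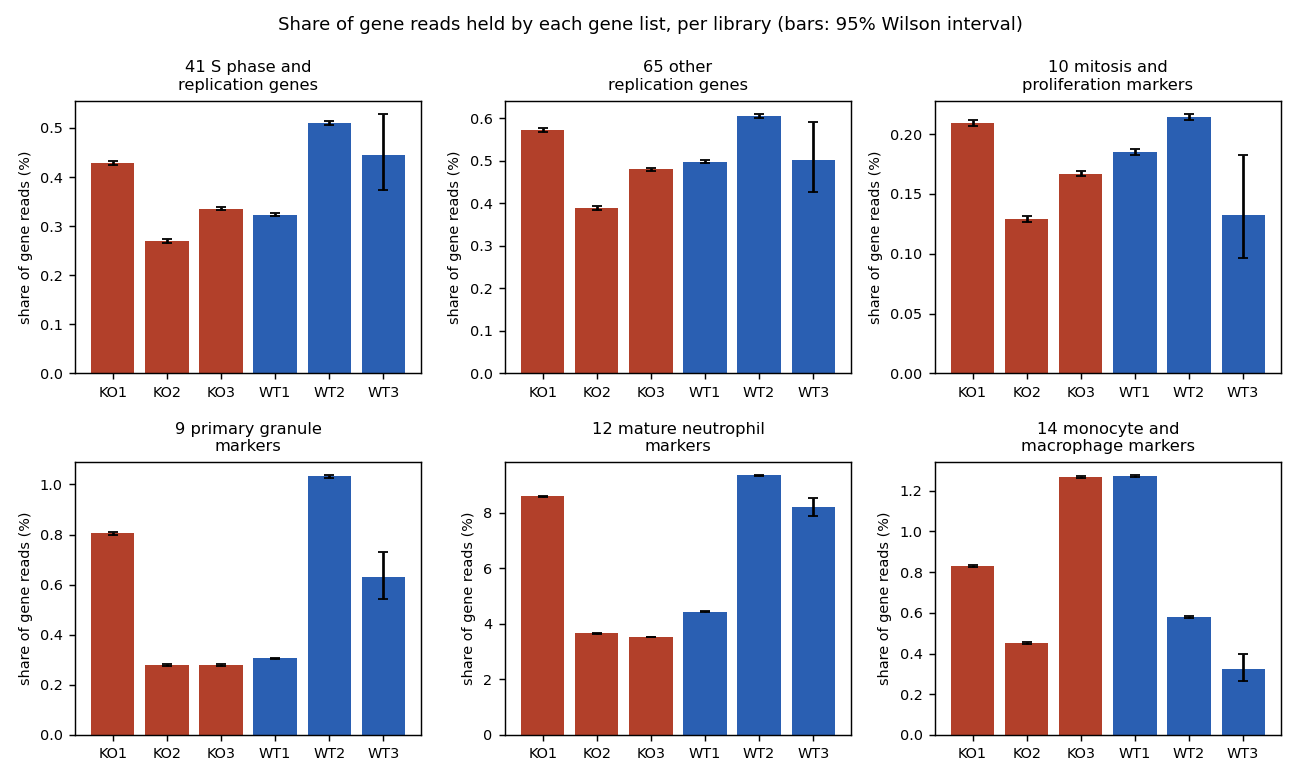
Share of all gene reads (%, y axis, each panel from 0) held by 6 gene lists in each library (x axis, KO libraries red, WT libraries blue), with 95% Wilson intervals. The 41 genes, the other replication genes and the neutrophil lists are highest in WT replicate 2 and next in KO replicate 1 among the deep libraries, and the monocyte and macrophage list is highest in WT replicate 1 and KO replicate 3.

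Most, but not all, markers of neutrophil lineage cells had the library order of the set, as did most proliferation markers. KO replicate 1 and WT replicate 2 were the highest of the 5 deep libraries for 32 of the 41 replication genes. The same order held for 7 of 9 primary granule markers, 7 of 12 markers listed for mature neutrophils and 7 of 10 proliferation markers outside replication. It held for 0 of 13 mast cell and basophil, 0 of 14 monocyte and macrophage and 0 of 12 erythroid markers. The share of all tested genes with this order was not counted. Of 10 primary granule markers listed, most of them made by promyelocytes, 9 were found in the files (Azu2 was not matched). They held 0.804%, 0.280% and 0.279% of gene reads in KO replicates 1, 2 and 3 and 0.306%, 1.03% and 0.631% in WT replicates 1, 2 and 3. The 12 markers of mature neutrophils held 8.58%, 3.66% and 3.52% in KO and 4.43%, 9.34% and 8.21% in WT. S100a8, S100a9 and Ngp made up 85.8% to 88.7% of the reads of that list, so its share mostly describes these 3 genes, and without them the list held 1.17%, 0.412% and 0.448% in KO and 0.576%, 1.32% and 1.08% in WT. The exceptions were Srgn and Cst7 among the primary granule markers, and Lcn2, Mmp8, Retnlg, Cxcr2 and Csf3r among the 12. Of the 12, Ltf, Ngp, Camp, Lcn2 and Mmp8 are secondary granule genes, made before neutrophils are mature, so the list mixes stages. Among these, Ltf, Ngp and Camp had the order of the set and Lcn2 and Mmp8 did not. Of the remaining genes beside S100a8 and S100a9, Ly6g and Mmp9 had the order of the set and Retnlg, Cxcr2 and Csf3r did not. Mmp8, a neutrophil collagenase, stood at 241.0, 232.2 and 227.2 CPM in KO, against 234.6 and 144.5 CPM in WT replicates 1 and 2, so that WT replicate 2 was its lowest deep library. By edgeR 0 of 9 and 0 of 12 passed at an unadjusted p under 0.05 between genotypes. The 14 monocyte and macrophage markers ranged from 0.451% to 1.27% in KO and from 0.323% to 1.27% in WT, with KO replicate 3 and WT replicate 1 the highest. The 13 mast cell and basophil markers ranged from 0.340% to 0.921% in KO and from 0.511% to 0.599% in WT. The 12 erythroid markers, of which 9 were tested, held 0.0358% to 0.0681% in KO and 0.0601% to 0.0824% in WT. Tfrc, the transferrin receptor, which other dividing cells also make, gave 39.1% to 92.9% of those reads. Without Tfrc the list held 0.00806%, 0.0184% and 0.00483% in KO and 0.00816%, 0.0208% and 0.0502% in WT, where WT replicate 3 had 14 reads. Of these lists, 3 mast cell and 2 monocyte markers were lower and 1 monocyte marker was higher at an unadjusted p under 0.05, and 0 passed after adjustment. Among 7 T and B cell markers, Cd3e, Cd3g, Cd8a and Ms4a1 had 0 reads in every library, and the list summed to 0.2 to 0.4 CPM in each deep library. The part of cell makeup in the levels of the replication genes was not tested.

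**Figure D3:**
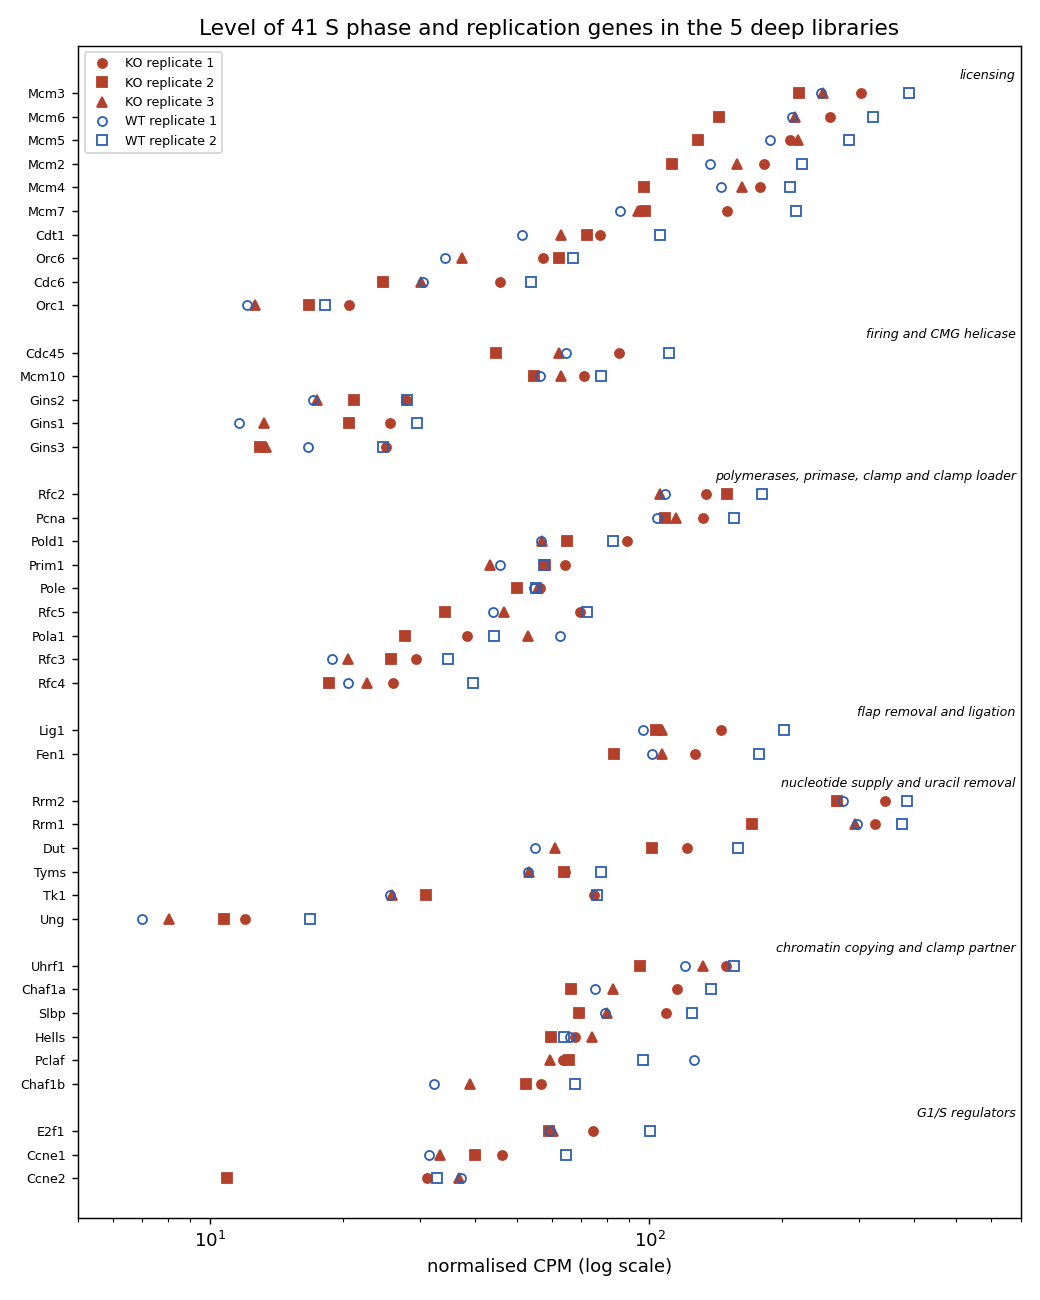
Normalised CPM (log scale) of each of the 41 genes in the 5 deep libraries, grouped by role, with KO libraries as filled red and WT libraries as open blue symbols. Open squares (WT replicate 2) sit at the right end of most rows, open circles (WT replicate 1) mostly sit among the KO symbols or left of them, and in Pclaf alone do both open symbols lie to the right of every filled one.

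The licensing genes load the helicase in G1, and 9 of the 10 lay below 0 (median -0.18, range -0.58 to 0.09). Mcm7, a subunit of the ring (chromosome 5, 138164583 to 138172422, minus strand), had the lowest p among them. It stood at 150.5, 97.45 and 94.0 CPM in KO replicates 1, 2 and 3, against 85.8 and 216.0 CPM in WT replicates 1 and 2 and 9 reads in WT replicate 3. The KO values lay between the 2 deep WT values, and the fitted difference of -0.58 (SE 0.44) had an unadjusted p = 0.215 and an adjusted p = 1 by edgeR. Mcm3 was the most abundant licensing gene, at 304.0, 218.8 and 248.4 CPM in KO against 245.3 and 390.4 CPM in WT replicates 1 and 2 and 5 reads in WT replicate 3 (log2 fold change -0.13, SE 0.37). Cdc6, the loading ATPase, stood at 45.6, 24.7 and 30.2 CPM in KO, against 30.4 and 53.7 CPM in the deep WT libraries and 1 read in WT replicate 3 (-0.30, SE 0.39). Mcm2, Mcm4, Mcm5 and Mcm6 were at -0.21, -0.24, -0.21 and -0.14. Cdt1, Orc6 and Orc1 were closest to 0, at -0.07, -0.03 and 0.09.

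The 6 ring subunits are needed in equal numbers, but their reads per length were not equal. Averaged over the deep libraries and divided by the merged exon length, levels were 75.0 CPM per kb for Mcm3, 51.5 for Mcm5, 49.3 for Mcm6, 44.2 for Mcm4, 29.1 for Mcm7 and 23.4 for Mcm2. The highest level per kb was 3.16 times the lowest in KO and 3.28 times in the deep WT libraries. The merged exon length counts every annotated exon, so a gene with many rare exons reads low on this scale.

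Of the 5 genes that turn the loaded ring into the active helicase, 4 lay below 0, and the median was -0.08. Cdc45 (chromosome 16, 18780447 to 18811987, minus strand), a factor needed for origins to fire, was the most abundant. It stood at 85.35, 44.6 and 62.1 CPM in KO, against 64.6 and 110.8 CPM in WT replicates 1 and 2 and 3 reads in WT replicate 3. The groups overlapped through WT replicate 1 (log2 fold change -0.46, SE 0.37, unadjusted p = 0.247, adjusted p = 1 by edgeR). Gins3, a GINS subunit, stood at 25.2, 12.97 and 13.4 CPM in KO, against 16.7 and 24.8 CPM in the deep WT libraries and 2 reads in WT replicate 3 (-0.39, SE 0.45). Its partners Gins1 and Gins2 were at -0.08 and 0.04, and Mcm10, which helps to start the helicase, was at -0.02. The GINS genes thus lay on both sides of 0, each within its standard error.

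Polymerase and clamp genes were spread on both sides of 0. Of 9 genes 7 lay below 0 (median -0.06, range -0.42 to 0.14). Rfc4, a clamp loader subunit, stood at 26.0, 18.7 and 22.8 CPM in KO, against 20.6 and 39.6 CPM in the deep WT libraries and 1 read in WT replicate 3 (log2 fold change -0.42, SE 0.38). Rfc2, the most abundant of the role, stood at 134.3, 150.0 and 105.8 CPM in KO, against 108.6 and 180.0 CPM in WT replicates 1 and 2 and 8 reads in WT replicate 3 (-0.30, SE 0.37). Both genes overlapped between the groups. In 9 of 41 genes, Rfc2, Prim1 and Pole among them, KO replicate 1 and WT replicate 2 were not the 2 highest deep libraries. Pola1, the catalytic subunit of the polymerase that extends primers, was 1 of these 9. It stood at 38.4, 27.7 and 52.9 CPM in KO, against 62.5 CPM in WT replicate 1, 44.4 CPM in WT replicate 2 and 1 read in WT replicate 3 (-0.38, SE 0.37). Pola1 lies on the X chromosome, and both libraries with Xist reads were lower than KO replicate 3 and WT replicate 1, though KO replicate 2, with 1 Xist read, was the lowest. That order is not particular to the X chromosome. Ccne2, on chromosome 4, had it too, at 31.1, 10.9 and 36.8 CPM in KO, against 37.2 and 32.8 CPM in WT replicates 1 and 2. The cause was not tested. Pcna, the sliding clamp, was at -0.06, and the leading strand polymerase gene Pole and the primase gene Prim1 were at 0.08 and 0.14. Pold1, Rfc3 and Rfc5 were at -0.02, -0.02 and -0.16. Pcna has pseudogene copies, of which Pcna-ps2 had 7 reads or fewer in each library and Pcna-ps1 had 0, and reads that match both copies equally are missing from these counts.

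Both genes that finish Okazaki fragments were negative. The ligase gene Lig1 stood at 145.2, 103.5 and 107.0 CPM in KO, against 96.8 and 202.0 CPM in WT replicates 1 and 2 and 4 reads in WT replicate 3 (log2 fold change -0.29, SE 0.38). The flap nuclease gene Fen1 was at -0.24 (SE 0.41). In both genes WT replicate 2 stood above every other deep library. WT replicate 1 stood below all 3 KO libraries for Lig1 and between KO replicates 2 and 3 for Fen1.

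All 6 genes of nucleotide supply and uracil removal lay below 0 as reported (median -0.25), though Tk1 and Ung turned positive with Xist reads as a term. Ribonucleotide reductase makes the building blocks of DNA, and its subunit genes were the most abundant of the role. Rrm1 (chromosome 7, 102441695 to 102469771, plus strand) stood at 325.8, 171.2 and 293.5 CPM in KO, against 296.2 and 376.7 CPM in WT replicates 1 and 2 and 15 reads in WT replicate 3 (log2 fold change -0.46, SE 0.37, unadjusted p = 0.236, adjusted p = 1 by edgeR). Rrm2 stood at 343.8, 267.8 and 269.0 CPM in KO, against 275.5 and 385.0 CPM in the deep WT libraries and 11 reads in WT replicate 3 (-0.17, SE 0.33). KO replicate 2 was the lowest library for both, and WT replicate 2 the highest of the deep ones. Dut, the enzyme that keeps uracil out of DNA, stood at 121.8, 101.4 and 61.0 CPM in KO, against 54.9 and 158.8 CPM in WT replicates 1 and 2 and 9 reads in WT replicate 3 (-0.45, SE 0.51). Its deep WT values lay outside the KO range on both sides. Tk1, which salvages thymidine, was as widely spread, at 74.65, 31.0 and 25.9 CPM in KO against 25.6 and 76.0 CPM in the deep WT libraries (-0.23, SE 0.53). Tyms, which makes thymidylate, and Ung, which cuts uracil out of DNA, were at -0.27 and -0.17. Ung was the scarcest gene of the set per length, at 1.996 CPM per kb, and Rrm2 the most abundant, at 111 CPM per kb.

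Genes that copy chromatin behind the fork, with the clamp partner gene Pclaf, had a median of -0.07. Uhrf1, which guides maintenance of DNA methylation, stood at 149.6, 94.9 and 132.4 CPM in KO, against 120.5 and 155.7 CPM in WT replicates 1 and 2 and 3 reads in WT replicate 3 (log2 fold change -0.06, SE 0.34). Chaf1a and Chaf1b, which encode subunits of the histone chaperone CAF-1, were at -0.25 and 0.02. Slbp, which binds histone messenger RNA, was at -0.08, and the remodeler gene Hells was closest to 0 of the set, at -0.0007 (SE 0.32). The G1 to S regulators were negative in 3 of 3. E2f1 stood at 74.3, 59.0 and 60.2 CPM in KO, against 59.4 and 100.4 CPM in the deep WT libraries and 0 reads in WT replicate 3 (-0.17, SE 0.42). Ccne1 and Ccne2, the E cyclins that drive entry into S phase, were at -0.17 and -0.32.

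Pclaf was the gene of the set with the lowest p. It encodes PAF15, a small protein that binds Pcna and takes part in replication and in the bypass of DNA damage. Pclaf (ENSMUSG00000040204.6, chromosome 9, 65890237 to 65903266, plus strand) stood at 63.5, 65.65 and 59.25 CPM in KO replicates 1, 2 and 3, a mean of 62.8 ± 3.26 (SD, n = 3). In WT it was at 126.6 CPM in replicate 1, 96.5 CPM in replicate 2 and 6 reads in replicate 3. Every KO library thus lay below both deep WT libraries, and the KO libraries lay close together. It was the 1 gene of 41 with that order, which 3.87% of all tested genes had, while 0 of 41 had the opposite order, which 4.79% of all had. A single gene of 41 is no more than that background. The fitted log2 fold change was -0.94 (SE 0.33, 95% interval -1.66 to -0.22), or 1.92-fold lower in KO. Its unadjusted p was 0.0153 and its adjusted p = 1 by edgeR over 12292 genes, so the difference did not pass. The 6 reads of WT replicate 3 have an exact 95% interval of 2.20 to 13.1, where the KO mean would give 2.10 reads and the mean of the deep WT libraries 3.73. Leaving out 1 library at a time gave values from -1.13 (without WT replicate 2) to -0.79 (without WT replicate 1), with adjusted p from 0.92 to 1 by edgeR. The unadjusted p was above 0.05 in 3 of these fits, at 0.0782 without WT replicate 1, 0.0585 without KO replicate 1 and 0.0621 without KO replicate 3.

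Set against the other 40 genes, Pclaf was less distinct. It took 1.48%, 2.18% and 1.72% of the reads of the set in KO replicates 1, 2 and 3, and 3.77%, 1.86% and 4.84% in WT replicates 1, 2 and 3. The 95% Wilson interval of WT replicate 3 was 2.24% to 10.2%. WT replicate 2 thus lay within the KO range on this scale, and WT replicates 1 and 3 above it. Pclaf had 3 to 9 reads on the opposite strand in the deep libraries.

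**Figure D4:**
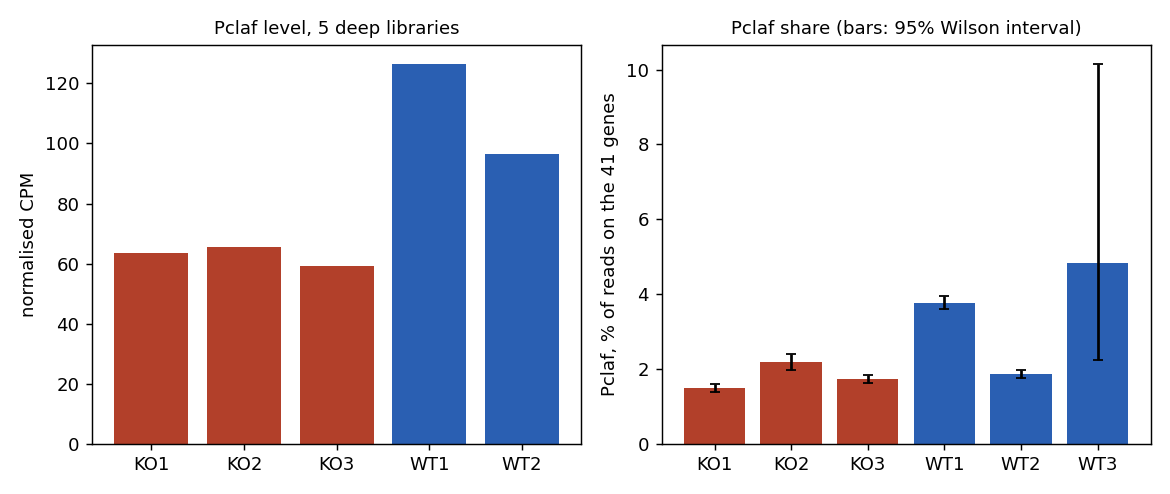
Left, Pclaf in normalised CPM in the 5 deep libraries. Right, Pclaf as a percent of the reads on the 41 genes in all 6 libraries, with 95% Wilson intervals (KO red, WT blue). The KO libraries sit between 59.25 and 65.65 CPM, below both WT libraries, while on the right WT replicate 2 (1.86%) sits among the KO libraries.

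The rest of the replication machinery was read from 65 other genes, all with enough reads to be tested. Of these 49 (75.4%) lay below 0 and 16 above (median -0.10, range -0.43 to 0.29), where 48% of all tested genes lay below 0 (median 0.01). As for the 41 genes, WT replicate 2 and KO replicate 1 were the highest deep libraries in summed level (6181 and 5719 CPM). How the count of 49 moves when a library is left out was not computed. By edgeR 0 of the 65 passed in either direction, and 0 had an unadjusted p under 0.05. Ccna2, the S phase cyclin, stood at 237.7, 156.0 and 201.3 CPM in KO, against 223.0 and 266.7 CPM in WT replicates 1 and 2 and 9 reads in WT replicate 3 (log2 fold change -0.33, SE 0.33). Prim2, the large primase subunit, stood at 33.9, 24.2 and 26.3 CPM in KO, against 27.8 and 41.03 CPM in the deep WT libraries and 2 reads in WT replicate 3 (-0.35, SE 0.36). Rpa1, which coats single-stranded DNA, stood at 147.8, 70.4 and 150.8 CPM in KO, against 150.5 and 189.6 CPM in the deep WT libraries and 3 reads in WT replicate 3 (-0.35, SE 0.39). These 3 had the lowest p on the negative side, at 0.335 to 0.389 unadjusted by edgeR, and each overlapped between the groups. Samhd1, an enzyme that breaks down the building blocks of DNA, stood at 230.4, 234.6 and 202.3 CPM in KO, against 201.2 and 188.7 CPM in the deep WT libraries and 4 reads in WT replicate 3 (0.29, SE 0.32). The fork factor gene Wdhd1 stood at 85.4, 89.7 and 62.55 CPM in KO, against 61.0 and 85.5 CPM in the deep WT libraries and 1 read in WT replicate 3 (0.19, SE 0.35). The helicase gene Recql4 stood at 28.55, 30.85 and 14.2 CPM in KO, against 13.8 and 28.4 CPM in the deep WT libraries and 1 read in WT replicate 3 (0.19, SE 0.45). These 3 had the lowest p on the positive side, at 0.388 to 0.680 unadjusted by edgeR, and Wdhd1 and Recql4 overlapped between the groups. All KO libraries lay below both deep WT libraries for 5 of the 65 and above them for 1. Those below were Orc5, Chek1, Top2a, Dck and E2f7, and the one above was Samhd1, where 3.87% of all genes lay below and 4.79% above. Top2a, the topoisomerase of dividing cells, stood at 618.4, 371.8 and 614.7 CPM in KO, against 743.7 and 714.0 CPM in the deep WT libraries and 11 reads in WT replicate 3. Orc5, Chek1, Top2a, Dck and E2f7 were named after their values were seen. Of 10 mitosis and proliferation markers 8 lay below 0 (median -0.22), and 0 passed. Their share of gene reads was 0.209%, 0.129% and 0.167% in KO and 0.185%, 0.214% and 0.133% in WT replicates 1, 2 and 3. Mki67, the marker of cycling cells, stood at 932.6, 670.9 and 964.7 CPM in KO, against 1099 and 857.2 CPM in the deep WT libraries and 15 reads in WT replicate 3 (0.05, SE 0.40).

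Of the 41 genes, 9 start within 1000 bases of a protein-coding gene on the opposite strand. The 9 neighbours did not pass either, with unadjusted p of 0.198 or more by edgeR. Mcm7 was at -0.58 and its neighbour Ap4m1, which encodes a subunit of a vesicle adaptor, at 0.38 (SE 0.35). Cdc45 was at -0.46 and Ufd1, of the ubiquitin pathway, at 0.19 (SE 0.34). Mcm4 was at -0.24 and Prkdc, the DNA-dependent protein kinase of end joining, at 0.05 (SE 0.39). Orc1 was at 0.09 and the splicing factor gene Prpf38a at -0.29 (SE 0.34). Gins1, Fen1 and Tk1 were at -0.08, -0.24 and -0.23, and their neighbours Abhd12, Tmem258 and Afmid at 0.30, 0.01 and 0.67. Signs were opposite in these 7 pairs and alike in 2, Orc6 with Vps35 (both -0.03) and Pole with Pxmp2 (0.08 and 0.12). With 36 of the 41 genes below 0, against 48% of all tested genes, opposite signs need no link between neighbours. A link within pairs was not tested.

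**Figure D5:**
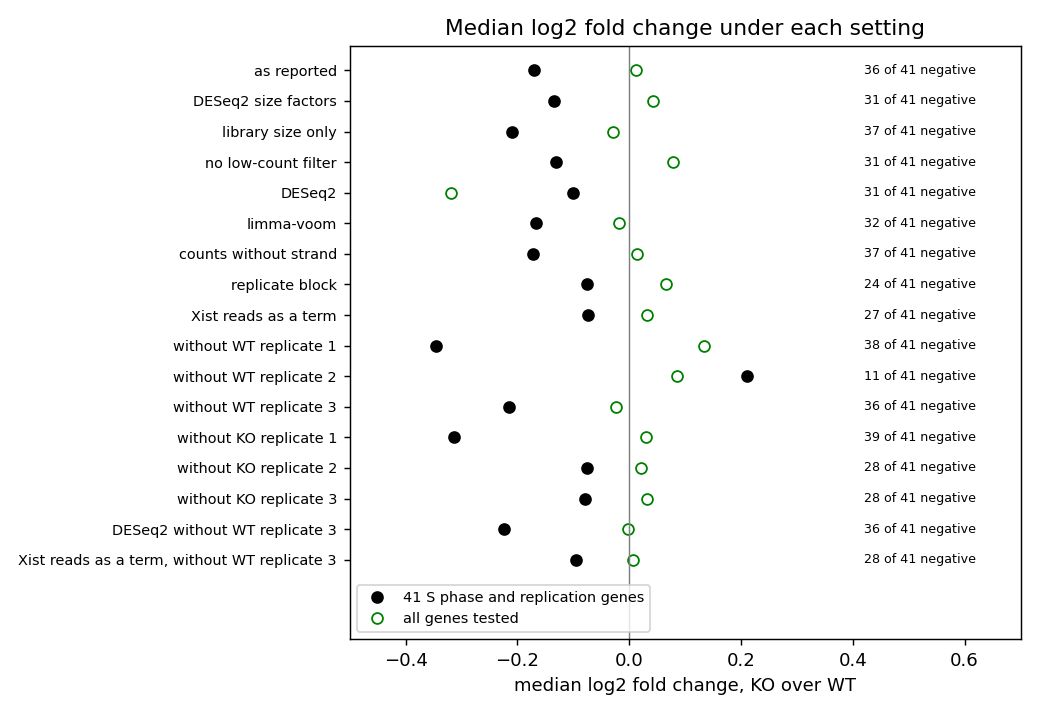
Median log2 fold change, KO over WT, of the 41 genes (filled) and of all genes tested (open) as reported and under each other setting, with the number of negative values of the set at the right. Leaving out WT replicate 2 puts the filled point right of 0, at 0.21, and in the other settings it lies between -0.35 and -0.07.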

How the data were processed

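Polyadenylated RNA from 6 samples was made into TruSeq Stranded mRNA libraries and read on an Illumina HiSeq, per the labels. The files the authors deposited are whole read counts per gene, laid out as STAR writes them. Per the submitters' processing notes, STAR 2.5.1b, DESeq2 and the GRCm38 build were used, in roles the notes do not state, and no source used here names the annotation release. The reverse-stranded column of each file was taken, which held 95.55% or more of stranded gene reads in each run. Rows that name no gene held 25.6% to 47.8% of reads per library and were left out. The 2 runs of WT replicate 3 (27351 and 558 gene reads) were summed. Identifiers were matched without version to GENCODE M21 (46488 of 46983 matched).

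Genes kept by filterByExpr (12292) were scaled by TMM and tested with edgeR 4.0.16 (glmQLFit, robust, and glmQLFTest). The model held genotype alone, and the threshold was an adjusted p of 0.05. Standard errors are the log2 fold change over the root of F, and edgeR's default Poisson bound on p was kept. The method was run on simulated counts with the same spread for all genes and large changes set in well-read genes. That run does not cover differences as small as those reported here. Alternatives used DESeq2 1.42.0, limma 3.58.1, other scalings, filters, strands, terms and left-out libraries. The genes and lists were chosen with earlier results of these data known. Values per library are given for Psip1, the 10 genes of lowest p and the most abundant gene of each role, and for the 3 other replication genes of lowest p in each direction. Tk1, single marker genes, Top2a, Mki67, the pseudogenes and the neighbours beyond this rule were added after their values were seen.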

Additional observations from a re-analysis of the deposited data

How the results depend on the processing

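In every one of the 16 alternatives run, 0 of the 41 genes and 0 of the 65 other replication genes passed the adjusted threshold. Over all genes, 2 passed with library size only, 9 without a low-count filter, 1 with DESeq2, 4 with Xist reads as a term and 12 with DESeq2 without WT replicate 3, and leaving out 1 library at a time gave 0 to 5. Psip1 passed in 4 alternatives (no low-count filter, replicate block, Xist reads as a term, and DESeq2 without WT replicate 3). The median over all tested genes moved to -0.32 with DESeq2, which tested 22213 genes, and to 0.13 without WT replicate 1. The median of the set ran from -0.35 to 0.21 and its number of negative values from 11 to 39 when 1 library at a time was left out, the extremes on the positive side coming without WT replicate 2. WT replicate 3 held 27909 gene reads and limits every WT value. The fits that add Xist reads without WT replicate 3, and DESeq2 without it, were chosen after seeing the data.

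The replicate numbers do not pair the samples by the labels, and same-numbered KO and WT libraries did not deviate together over the tested genes (correlations -0.33, -0.05 and -0.21 for numbers 1, 2 and 3). No library correlated best with its own number. KO replicate 3 went with WT replicate 1 (0.50), KO replicate 1 with WT replicate 2 (0.32) and KO replicate 2 with WT replicate 3 (0.19). Deviations were taken from the mean of all 3 libraries of a group, so the shallow WT replicate 3 enters each WT deviation. With the replicate block 13 genes were called among all genes (5 lower and 8 higher) and 0 of the 41, with 24 of 41 negative and a median of -0.07, and Pclaf had an unadjusted p of 0.0711.

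The sign turned with scaling by DESeq2 size factors for Orc6 (0.0071), Mcm10 (0.012), Pold1 (0.0091), Rfc3 (0.017) and Hells (0.029). Without a low-count filter, the sign turned for Orc6 (0.0042), Mcm10 (0.014), Pold1 (0.0088), Rfc3 (0.017) and Hells (0.031). The sign turned with limma-voom for Orc6 (0.068), Gins1 (0.047), Pold1 (0.0091) and Hells (0.038). With the replicate number as a block, the sign turned for Orc6 (0.065), Cdt1 (0.14), Mcm6 (0.023), Mcm10 (0.051), Gins1 (0.18), Pold1 (0.010), Pcna (0.0065), Rfc3 (0.22), Ung (0.14), Slbp (0.13), Ccne1 (0.10) and E2f1 (0.049). The sign turned with Xist reads as a term for Orc6 (0.10), Cdt1 (0.079), Mcm10 (0.029), Gins1 (0.16), Pold1 (0.048), Rfc3 (0.11), Tk1 (0.0077), Ung (0.051) and Hells (0.0046). With DESeq2 and no WT replicate 3, the sign turned for Orc6 (0.033), Gins2 (-0.036), Pole (-0.034), Pold1 (0.0001), Chaf1b (-0.030) and Hells (0.033). The sign turned with Xist reads as a term and no WT replicate 3 for Orc6 (0.20), Cdt1 (0.017), Gins1 (0.21), Pole (-0.014), Pold1 (0.10), Rfc3 (0.051), Tk1 (0.069), Dut (0.14), Ung (0.012) and Hells (0.042). With DESeq2, the sign turned for Cdt1 (0.0068), Mcm10 (0.037), Rfc3 (0.089), Hells (0.018) and Slbp (0.027). The sign turned with counts taken without strand for Gins2 (-0.013). With scaling by library size only, the sign turned for Chaf1b (-0.021).

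Leaving out 1 library at a time spanned log2 fold changes of -0.14 to 0.36 for Orc1, -0.38 to 0.42 for Orc6, -0.58 to 0.16 for Cdc6, -0.34 to 0.54 for Cdt1, -0.37 to 0.12 for Mcm2, -0.31 to 0.28 for Mcm3, -0.41 to 0.017 for Mcm4 and -0.35 to 0.16 for Mcm5. The same spans were -0.38 to 0.31 for Mcm6, -0.11 to 0.25 for Mcm10, -0.53 to 0.68 for Gins1, -0.17 to 0.47 for Gins2, -0.023 to 0.20 for Pole, -0.24 to 0.21 for Pold1, -0.19 to 0.25 for Pcna and -0.28 to 0.51 for Rfc3. Spans were -0.72 to 0.096 for Rfc4, -0.46 to 0.24 for Rfc5, -0.40 to 0.28 for Fen1, -0.55 to 0.24 for Lig1, -0.30 to 0.022 for Rrm2, -0.86 to 0.65 for Tk1, -0.56 to 0.62 for Ung and -0.49 to 0.20 for Chaf1a. Others were -0.29 to 0.64 for Chaf1b, -0.20 to 0.16 for Uhrf1, -0.051 to 0.075 for Hells, -0.27 to 0.37 for Slbp, -0.45 to 0.47 for Ccne1, -0.63 to 0.041 for Ccne2, -0.33 to 0.31 for E2f1 and -0.17 to 0.75 for Recql4. The cause of these changes was not tested.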
